A study of Rattus norvegicus with 28 samples.

Results

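The arrays described are those of the periaqueductal grey, labelled PAG, from rats that had been injected in one hindpaw as newborns. They are the 10 arrays of 28 whose titles begin with the region's name, with 5 from carrageenan-injected and 5 from saline-injected animals pooled. On each array the RNA of an injected animal was hybridised beside RNA of the same region from an uninjected control, so that the ratio compares any injection with none. Carrageenan, a seaweed polysaccharide that inflames tissue, was given once into the left hindpaw on postnatal day 3, at 0.25% in 0.9% saline and 1 µl per g. The saline group received saline into the same paw on the same day, and the controls received nothing. Per the labels, all were males, were weaned on day 21 and were kept until day 59. The labels do not say whether arrays came from separate animals or whether controls were pooled or shared, so each p-value below reflects how much the arrays differed, which could be technical variation alone.

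The periaqueductal grey surrounds the midbrain aqueduct and is a station of descending pain control. It acts on the spinal cord through the rostral ventromedial medulla (RVM), and it is known for opioid and neurotensin analgesia. Glutamate excites its output neurons through AMPA, kainate and NMDA receptors, GABA restrains them, and serotonin neurons of the neighbouring raphe nuclei lie beside it. NMDA receptors combine the obligatory subunit encoded by Grin1 with subunits of the Grin2 and Grin3 families, and Grin2 subunits set how fast the channel closes.

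The custom array held 228 oligonucleotide features for genes of transmission, neuropeptides, neurotrophins and cytokines. Of these, 202 carried a gene name, with 156 different symbols, IL12A and Il12a counted apart. Each value was a log2 ratio, read as injected over uninjected. That direction is likely rather than stated, because the injected animal was channel 1 (Alexa 647) and the control channel 2 (Alexa 546) on every array. Since the dyes were never swapped, an effect of the dyes and an effect of injection cannot be told apart in any ratio below. Of the 2280 PAG values 1132 (49.6%) were an exact 0, which was read as no measurement. The arrays had between 33 and 181 measured features, with medians between -0.019 and 0.083. Over the 45 pairs of arrays r across shared features was positive in 38 and had a median of 0.32, and the lowest was -0.13. The pairs shared 26 to 148 features, and no pair lay below -0.3. Carrageenan arrays measured 148.8 ± 36.9 features and saline arrays 80.8 ± 26.8 (SD, n = 5 each; exact two-sided permutation p = 0.0397, adjusted p = 0.0714 over 3 such tests). A feature was therefore tested only where at least 3 arrays of each injection had measured it, which kept 78 features and left 150 out. Of these, 77 had been measured on at least 3 carrageenan arrays but on fewer than 3 saline arrays. The array held none of the astrocyte, microglia, oligodendrocyte, endothelium or general neuron markers sought, and no housekeeping gene. The regional label and the cell composition could therefore not be checked. A change in the number of cells of a type and a change in RNA per cell cannot be told apart in such tissue.

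The question was which genes of the adult periaqueductal grey differed after a neonatal paw injection of either kind. Of the 78 features, 6 (7.69%) differed from their uninjected controls with an adjusted p below 0.05 in limma (two-sided, Benjamini-Hochberg). Glutamate receptor subunits made up those that fell, namely Grin2d, Grin2b and Grik3. The serotonin transporter Slc6a4 and the precursors of dynorphin (Pdyn) and neurotensin (Nts) made up those that rose. The 3 that rose were 3.85% of the features tested, and so were the 3 that fell. Before adjustment 20 features (25.6%) had a p below 0.05, 12 with a mean above 0 (15.4%) and 8 below (10.3%), against 3.9 expected by chance. In the exact sign-flip permutation test, which uses only the arrays of each feature, 0 of 78 passed (smallest adjusted p = 0.0508), although 26 (33.3%) had an unadjusted p below 0.05. That test allows no p below 0.00195 for a feature with 10 arrays and none below 0.03125 for a feature with 6. The limma calls also depended on single arrays. Without PAG carrageenan array 1 no feature passed (smallest adjusted p = 0.0546 by limma, 14 features with an unadjusted p below 0.05), and without PAG saline array 1 none did either (0.0598, 16 features).

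**Figure D1:**
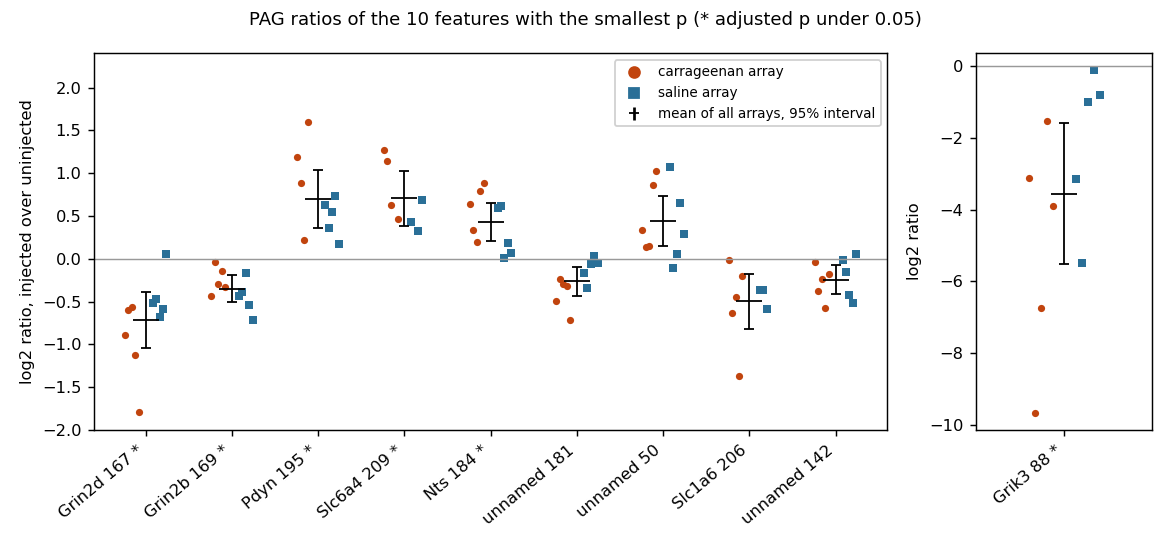
Log2 ratio of injected over uninjected (vertical axis) on each PAG array for the 10 features with the smallest p, with Grik3 on its own scale at the right. Circles are carrageenan arrays, squares saline arrays, and bars the mean of all measured arrays with its 95% interval from limma. Every measured array lies below 0 for Grin2b, Grik3 and Slc1a6 and above 0 for Pdyn, Slc6a4 and Nts.

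Promoter sequence is shown for the called genes that had one among the promoter sequences used. Peptide precursors that rose, Nts and Pdyn, can so be set beside receptor subunits that fell, Grin2d and Grik3. Each line gives the 250 bases before the annotated gene start (rat assembly GRCr8, RefSeq), in the direction of the gene. Capitals mark matches on either strand to the TATA box (TATAAA), the CCAAT box (CCAAT), the GC box (GGGCGG), the half-site of the cyclic AMP response element (TGACG) and the AP-1 site (TGANTCA). No such window was available for Grin2b or Slc6a4.
Nts, chr7:39460889-39461138, minus strand: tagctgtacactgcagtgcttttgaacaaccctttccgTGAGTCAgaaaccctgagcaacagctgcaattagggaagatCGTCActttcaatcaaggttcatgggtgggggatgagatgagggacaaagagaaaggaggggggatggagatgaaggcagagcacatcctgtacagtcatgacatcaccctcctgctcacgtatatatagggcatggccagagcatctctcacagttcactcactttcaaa
Pdyn, chr3:137366504-137366753, minus strand: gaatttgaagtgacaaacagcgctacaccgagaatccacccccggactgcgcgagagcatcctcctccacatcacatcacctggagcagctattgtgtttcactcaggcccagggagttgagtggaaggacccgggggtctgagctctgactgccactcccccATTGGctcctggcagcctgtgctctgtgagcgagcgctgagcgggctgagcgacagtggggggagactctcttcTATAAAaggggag
Grin2d, chr1:105481237-105481486, minus strand: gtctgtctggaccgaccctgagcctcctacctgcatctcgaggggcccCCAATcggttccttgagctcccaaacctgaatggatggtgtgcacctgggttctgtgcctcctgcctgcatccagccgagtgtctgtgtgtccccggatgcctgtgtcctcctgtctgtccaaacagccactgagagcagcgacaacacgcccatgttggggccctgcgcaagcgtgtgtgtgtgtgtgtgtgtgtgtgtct
Grik3, chr5:143052192-143052441, plus strand: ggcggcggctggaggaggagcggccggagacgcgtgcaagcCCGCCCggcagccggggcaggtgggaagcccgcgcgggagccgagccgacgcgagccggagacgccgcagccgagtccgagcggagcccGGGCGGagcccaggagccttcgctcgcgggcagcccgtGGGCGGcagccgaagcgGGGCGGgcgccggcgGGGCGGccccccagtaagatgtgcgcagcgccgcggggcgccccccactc

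The CCAAT box was the only motif found in more than 1 of these windows, and it lay in that of Pdyn, which rose, and of Grin2d, which fell. The Nts window held an AP-1 match, found in 6.34% of the 33469 rat windows of that length, and a half-site of the cyclic AMP response element, found in 18.2%. The Pdyn window held a TATA box (12.9% of all windows) and a CCAAT box (34%), and the Grin2d window a CCAAT box. The Grik3 window held GC boxes (30.5% of all windows) and was 81.6% G and C, against 48.8% for Nts, 59.2% for Pdyn and 60.4% for Grin2d. The median of all windows was 51.2%. A match describes letters and no binding was measured.

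Among the receptors, Grin2d encodes an NMDA subunit that gives slowly closing channels. On the carrageenan arrays, numbered 1 to 5, Grin2d feature 167 had log2 ratios of -0.89, -0.60, -0.56, -1.13 and -1.79, and on the saline arrays -0.52, -0.47, -0.68, -0.59 and 0.05. All arrays but saline array 5 lay below 0. Its mean was -0.72 (95% interval -1.05 to -0.39, n = 10, SD 0.48), which is 1.64-fold lower in injected animals (adjusted p = 0.0216 by limma). The array carried a second Grin2d feature, 171, and that one stayed between -0.09 and 0.17 on the same 10 arrays, with a mean of 0.01 (SD 0.09, adjusted p = 0.883 by limma). The features of this gene therefore did not move together, and the fall rests on feature 167 alone.

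Grin2b, which encodes the NMDA subunit that predominates early in life, showed a smaller but more even shift. Feature 169 had log2 ratios of -0.43, -0.04, -0.29, -0.14 and -0.33 on the carrageenan arrays. On the saline arrays they were -0.44, -0.39, -0.17, -0.54 and -0.72, so all 10 lay below 0. The mean was -0.35 (95% interval -0.51 to -0.19, SD 0.20), or 1.27-fold lower (adjusted p = 0.0216 by limma). It was the one called feature whose saline mean lay farther from 0 than its carrageenan mean, and the call was lost under quantile normalization.

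Grik3 encodes a kainate receptor subunit of low glutamate affinity, and its feature 88 had the mean farthest from 0 of the 78. Its log2 ratios were -3.12, -9.67, -6.73, -1.53 and -3.90 on carrageenan arrays and -3.15, -5.48, -1.0, -0.11 and -0.80 on saline arrays. All 10 were negative, but their size ran from a near-even ratio on saline array 4 to the lowest value on any PAG array. The mean of -3.55 (95% interval -5.52 to -1.58, SD 3.01; adjusted p = 0.0312 by limma) corresponds to an 11.7-fold lower level, or 7.3-fold without carrageenan array 2. The second Grik3 feature, 89, was measured on 6 arrays, too few for the test. There it read -3.62, -5.04, -2.43 and -1.40 on carrageenan arrays 1, 2, 4 and 5, and -0.92 and -0.04 on saline arrays 1 and 2. Unlike the Grin2d features, the Grik3 features lay on the same side of 0 on every array that measured them. The Grik3 call was lost without carrageenan array 1, 3 or 5 or without saline array 1 or 2 (adjusted p up to 0.133 over all settings by limma).

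**Figure D2:**
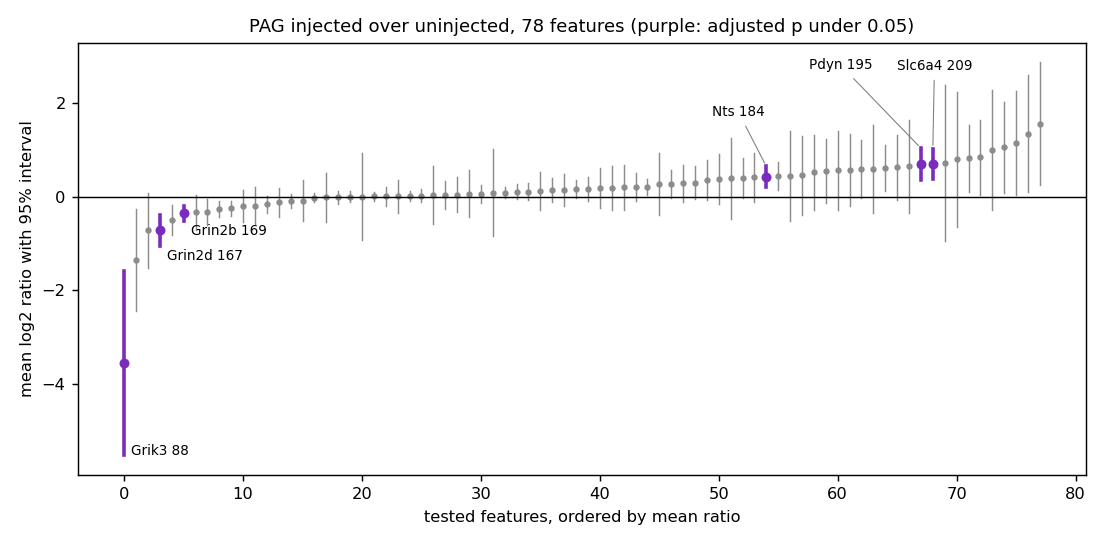
Mean log2 ratio of injected over uninjected in PAG (vertical axis) with its 95% interval from limma, for the 78 tested features ordered by mean. The 6 features with an adjusted p below 0.05 are purple, and several features with larger means than Nts, Pdyn or Slc6a4 have intervals wide enough to include or nearly reach 0.

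The array carried 23 features for 15 ionotropic glutamate receptor genes, of which 7 could be tested. Of those 7, 3 fell, none rose and 4 did not pass. The same 3 were all the falls among the 78 features (3.85%), and the list is described with that known. The median of the 7 mean ratios was -0.09, beside 0.17 over all 78 features. The AMPA subunits Gria3 and Gria4 averaged -0.09 and 0.13, and the NMDA subunit Grin3b 0.27. Among the 11 NMDA features, 8 were measured on at least 3 PAG arrays, and 6 of these had a mean below 0. Of the 165 features of the whole array so measured, 67 did (40.6%). The 6 include the called features of Grin2d and Grin2b, so the tally partly restates those calls, and it was not tested. Grin2c feature 170, another NMDA subunit, was below 0 on all 7 arrays that measured it, at -2.52, -1.43, -0.59, -2.67 and -1.48 on carrageenan arrays and -2.17 and -0.42 on saline arrays 2 and 5. It had too few saline arrays for the main test. It passed when 5 measured arrays of any kind sufficed, a setting in which 9 of 117 features passed, among them all 6 named above. Carrageenan arrays alone can meet that setting, so this pass does not show a fall after both injections. The metabotropic receptors gave no call among 4 tested features. Grm5, which excites through calcium release, averaged -1.35 ± 1.47 (SD, n = 8) and was below 0 on 8 of 8 arrays, from -4.39 to -0.06 (adjusted p = 0.128 by limma). Grm3 averaged -0.11 ± 0.42 (n = 9).

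The glutamate transporter Slc1a6 also lay below 0 on every array that measured it. Its values were -0.01, -0.63, -0.45, -1.37 and -0.20 on carrageenan arrays and -0.36, -0.37 and -0.59 on saline arrays 2, 3 and 4. The mean of -0.50 did not pass (95% interval -0.82 to -0.17, n = 8; adjusted p = 0.0625 by limma). Slc1a6 did pass under quantile normalization, with array weights, with a replicate block and without carrageenan array 4. In all, 10 of 78 features (12.8%) had 1 sign on every array that measured them, 6 above 0 (7.69%) and 4 below (5.13%).

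Of the genes that rose, Pdyn encodes the precursor of the dynorphins, the endogenous ligands of the kappa opioid receptor. Its feature 195 had log2 ratios of 1.19, 0.88, 0.22 and 1.60 on carrageenan arrays 1 to 4 and was not measured on array 5. On the saline arrays it had 0.63, 0.36, 0.55, 0.73 and 0.17, so that all 9 values were positive and the groups overlapped. The mean was 0.70 (95% interval 0.36 to 1.04, SD 0.47), or 1.63-fold higher (adjusted p = 0.0216 by limma).

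Slc6a4 encodes the transporter that takes serotonin back into the terminal, and it was the only serotonergic neuron marker on the array. Feature 209 read 1.27, 1.14, 0.63 and 0.47 on carrageenan arrays 1, 2, 3 and 5 and 0.43, 0.32 and 0.69 on saline arrays 1, 3 and 4. All 7 measured values lay above 0, with a mean of 0.71 (95% interval 0.39 to 1.03, SD 0.36), again 1.63-fold (adjusted p = 0.0216 by limma). This feature had the fewest arrays behind it of the 6, and its call was lost without carrageenan array 1 or 3. It could not be tested without saline array 1, 3 or 4.

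Nts encodes the precursor of neurotensin, a peptide with analgesic action in this region. Feature 184 was measured on all 10 arrays, at 0.64, 0.33, 0.19, 0.79 and 0.89 after carrageenan and 0.59, 0.62, 0.01, 0.18 and 0.07 after saline. Saline array 3 was close to an even ratio and all 10 were positive. The mean was 0.43 (95% interval 0.21 to 0.65, SD 0.31), or 1.35-fold higher (adjusted p = 0.0229 by limma). The call was lost without carrageenan array 1 or 5 or without saline array 1. The other Nts features were seldom measured. Feature 183 read 0.21, -0.33 and -0.38 on carrageenan arrays 1 to 3 and -0.30 on saline array 3, and feature 182 had a single value of -0.16. They do not follow feature 184. The neurotensin receptor Ntsr1 averaged 0.63 ± 1.05 (n = 10, above 0 on 7 arrays) and did not pass (adjusted p = 0.226 by limma). Its mean was 0.37 without carrageenan array 5.

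Most tested means lay above 0, namely 59 of 78 (75.6%), with a median of 0.17. Centring each array on the median of all its measured values lowered that share to 67.9%, and centring on the tested features, an alternative added once the values were known, lowered it to 60.3%. All 6 calls were kept under each of these centrings. A mean slightly above 0 was thus common, and the smaller positive values below are to be read beside it.

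Opioid and tachykinin genes are central to pain control in this region. Of the 5 opioid features tested, 1 (Pdyn) rose and all 5 had means above 0, with a median of 0.18. The enkephalin precursor Penk averaged 0.09 ± 1.33 on feature 194 (n = 9) and 0.18 ± 0.31 on feature 196 (n = 8). The beta-endorphin precursor Pomc averaged 0.29 ± 0.59 on feature 191 (n = 10) and 0.01 ± 1.16 on feature 198 (n = 7). The signs for Penk feature 194 and Pomc feature 198 turned under other settings. The precursor features with too few saline arrays, Penk 197 and Pomc 192, averaged -0.26 (n = 5) and -0.35 (n = 3). Among the tachykinin genes 4 features were tested and none passed. The substance P precursor Tac1 averaged 0.37 ± 0.60 on feature 55 and -0.01 ± 0.73 on feature 79 (n = 9 each), and the latter's sign turned when single arrays were left out. Tac1 feature 28 averaged -0.45 (n = 5). The receptors Tacr2 and Tacr3 averaged 0.57 ± 1.22 (n = 9) and 0.06 ± 0.66 (n = 8). The Tacr2 mean was 0.17 without carrageenan array 4, and the sign for Tacr3 turned under other settings, array weights among them.

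The opioid receptors were measured too rarely after saline to be tested. Oprd1, the delta opioid receptor, was measured on all 5 carrageenan arrays, at -3.18, -2.68, -2.29, -1.53 and -1.92, and on no saline array. Its ratio thus describes carrageenan animals alone. It had the smallest p where any 5 measured arrays sufficed. Oprm1, the mu receptor, spread from -4.42 to 3.01 over 5 arrays. Oprk1, the kappa receptor, read 3.54 and -0.84 on carrageenan arrays 2 and 4 and 2.35 on saline array 2. The nociceptin receptor Oprl1 averaged 0.38 (feature 188, n = 6) and 0.08 (feature 187, n = 3).

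**Figure D3:**
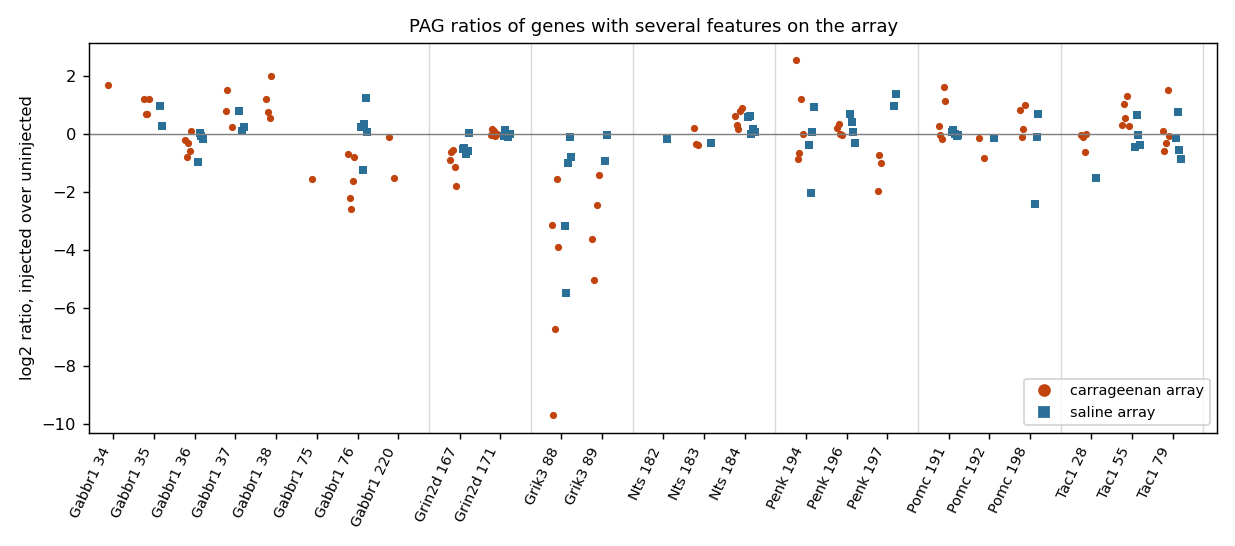
Log2 ratio of injected over uninjected (vertical axis) on each PAG array for genes represented by several features, with circles for carrageenan and squares for saline arrays. Both Grik3 features lie below 0, whereas Grin2d feature 167 lies below 0 on all arrays but saline array 5 and feature 171 near 0, and the Gabbr1 features divide into those above and those below 0.

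Inhibitory transmission gave no call in the main test. Among the GABA-A and GABA-rho receptors 5 of 6 tested features had means above 0, with a median of 0.26. Gabra5, a subunit of extrasynaptic receptors, was above 0 on 8 of 8 arrays but unevenly, with 4.22 on saline array 2, 2.67 on carrageenan array 4 and at most 0.57 on the others (mean 1.15, adjusted p = 0.168 by limma). Its mean was 0.71 without saline array 2. Gabre feature 74 averaged 1.00 ± 1.85 (n = 9), and 0.45 without the same array. The GABA-B receptor subunit gene Gabbr1 had 8 features. Feature 37 averaged 0.62 (n = 6, above 0 on all 6) and feature 36 -0.33 (n = 9, below 0 on 7), with unadjusted intervals that exclude 0 in opposite directions. Feature 76 averaged -0.72 (n = 10). Feature 35, which had too few saline arrays, read 1.20, 0.69, 0.68 and 1.21 on carrageenan arrays 1 to 4 and 0.97 and 0.28 on saline arrays 3 and 4. Feature 35 passed where any 5 measured arrays sufficed, a setting that carrageenan arrays alone can meet. No single direction can be given for this gene. Of the 9 genes with at least 2 tested features, 6 had means of 1 sign and 3, namely Gabbr1, Grin2d and Tac1, had both. For Grin2d and Tac1 one of the means was close to 0, as given above. With untested features measured on at least 3 PAG arrays counted too, Adra2a, Penk and Pomc also had means of both signs. Gad2, which makes GABA, averaged 0.21 ± 0.19 (n = 9, above 0 on 8, adjusted p = 0.126 by limma), and it passed with array weights and without carrageenan array 4.

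Among the monoamine genes, in the serotonin list 1 of 6 tested features rose (Slc6a4), and the median was 0.29. Htr5b, a serotonin receptor, averaged 1.06 (95% interval 0.09 to 2.02, n = 6) and was above 0 on all 6 arrays, from 0.09 to 3.07. All 4 tested adrenergic receptor features, for Adra2a, Adra2c and Adrb3, had means above 0. The alpha-2A adrenergic receptor Adra2a had a mean of 1.56 ± 1.77 on feature 32 (n = 8), with 5.35 on carrageenan array 3 and a mean of 1.02 without it, and 0.17 ± 0.24 on feature 33 (n = 9). Another Adra2a feature, 27, was measured on 3 carrageenan arrays alone, at -1.05, -2.63 and -1.93, on the other side of 0. The histamine receptor Hrh3 averaged 0.30 ± 0.49 (n = 9). The adenosine receptor Adora2a averaged 0.65 ± 1.33 (n = 8) and 0.60 ± 1.35 (n = 9) on features 23 and 24, but 0.19 on feature 23 without carrageenan array 5 and 0.27 on feature 24 without saline array 5.

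Among other neuropeptide precursors 1 of 3 tested features rose (Nts), while Calca, the precursor of calcitonin gene-related peptide, averaged 0.80 ± 1.93 (n = 8), with 5.43 on saline array 2 and a mean of 0.14 without it. None of the 6 other neuropeptide receptor features passed, and all 6 means were above 0 (median 0.52), among them that of the somatostatin receptor Sstr2 feature 201, at 0.59 ± 0.81 (n = 8). The neurotrophins Ntf3 and Ntf4 averaged 0.46 ± 1.20 (n = 9) and -0.18 ± 0.59 (n = 10), in a list with no call among 4 features. The Ntf3 mean was 0.078 without carrageenan array 5.

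Immune genes were thinly measured, with 2 of 21 features in the cytokine list and 5 of 19 in the cytokine receptor list tested and none called. The lists left out Il17b, Il23a, Il24 and Il12rb2, none of which was measured on any saline array. Il13, a cytokine of type 2 immunity, averaged 1.35 ± 1.68 (n = 8, above 0 on 7, adjusted p = 0.163 by limma), and the pro-inflammatory Il1b 0.53 ± 1.07 (n = 8), or 0.17 without carrageenan array 4. The receptors Il10ra and Il13ra2 averaged -0.16 ± 0.25 (n = 10, below 0 on 9) and 0.55 ± 0.96 (n = 9), the latter 0.29 without carrageenan array 5. The features without a gene name that stood closest to the threshold were 181, at -0.26, 50, at 0.44, and 142, at -0.25 (n = 10 each, adjusted p of 0.0625, 0.0625 and 0.0665 by limma).

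Pooling assumes that both injections shift a ratio alike, so the groups were set side by side. The carrageenan mean was farther from 0 for 5 of the 6 called features. Some uncalled features did so too, among them Ntsr1 and Htr5b, and others did the reverse, among them Hrh3 and Gad2. How many of all 78 tested features did so was not counted, so this is not shown to be particular to the called ones. Over the features that each array measured, ratios were also wider on carrageenan arrays on average. The SD per array was 1.47 ± 0.049 against 0.97 ± 0.45 on saline arrays (n = 5 each, exact two-sided permutation p = 0.0476, adjusted p = 0.0714). The arrays did not measure the same features, and saline array 2 had the largest SD of all, at 1.69. The part of this spread in the 5 features was not tested. For Grin2d feature 167 the means were -0.99 ± 0.50 after carrageenan and -0.44 ± 0.29 after saline (SD, n = 5 each). The difference was -0.56 (95% interval -1.12 to 0.01). Those of Grik3 were -4.99 ± 3.23 and -2.11 ± 2.20, with a difference of -2.88 (95% interval -6.52 to 0.76). For Pdyn they were 0.97 ± 0.58 and 0.49 ± 0.22, and the difference was 0.49 (95% interval -0.13 to 1.11). Slc6a4 had 0.88 ± 0.39 and 0.48 ± 0.19, a difference of 0.39 (95% interval -0.21 to 1.00). Nts had 0.57 ± 0.30 and 0.29 ± 0.29, a difference of 0.27 (95% interval -0.15 to 0.70). Grin2b went the other way, at -0.25 ± 0.16 and -0.45 ± 0.20, a difference of 0.20 (95% interval -0.09 to 0.50). In limma 0 of 78 features (0%) differed between the injections after adjustment. Without adjustment 10 did (12.8%), 7 higher after carrageenan (8.97%) and 3 lower (3.85%). The intervals still allow differences as large as the pooled means, so the injections were not shown to act alike.

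**Figure D4:**
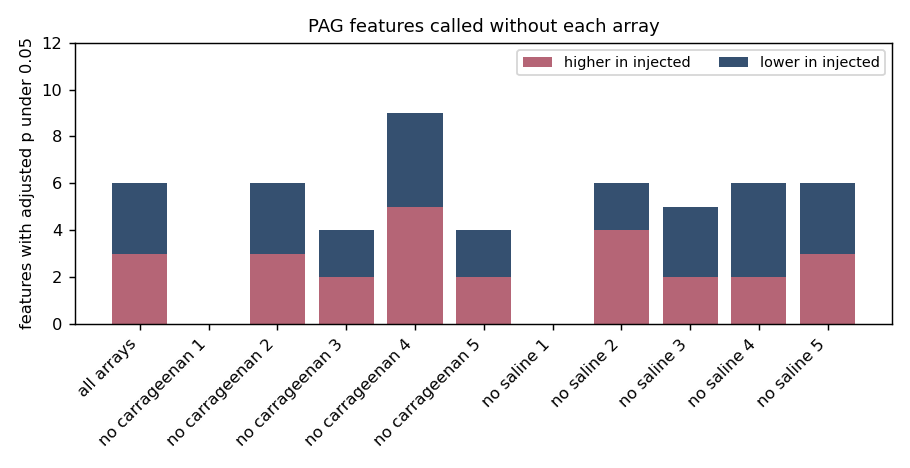
Number of PAG features with an adjusted p below 0.05 (vertical axis) with all arrays and with each array left out in turn, divided into those higher and lower in injected animals. The count is 6 with all arrays, 0 without carrageenan array 1 or saline array 1, and between 4 and 9 otherwise.

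Whether these ratios were particular to the periaqueductal grey was asked by setting them against the 9 arrays of the RVM, which receives its output. Both injections were pooled there too. The fit treated all arrays as independent, and the labels do not say whether both regions came from the same animals. Of 48 features measured on at least 3 arrays of every group, 0 (0%) differed between the regions in limma, with a smallest adjusted p of 0.851. At an unadjusted p under 0.05 there was 1 (2.08%), higher in the periaqueductal grey. That feature belonged to Polr2m, named here after its value was seen. Of the 6 called features, 3 could be tested. Grik3 averaged -3.21 ± 1.22 in the RVM (n = 7) and was below 0 on every array that measured it. The difference between regions was -0.34 (95% interval -2.80 to 2.11). Nts averaged 0.52 ± 0.52 (n = 8), a difference of -0.08 (95% interval -0.49 to 0.33). Grin2b averaged -0.19 ± 0.82 (n = 9), a difference of -0.16 (95% interval -0.70 to 0.39). Its RVM values ran from -1.13 to 1.76, more widely than in the periaqueductal grey.

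The other called features were measured too rarely in the RVM for that test. Grin2d feature 167 read -0.05, -1.62 and -1.07 on RVM saline arrays 1, 3 and 4 and was not measured on any RVM carrageenan array. Pdyn read -0.27 and 0.16 on carrageenan arrays 1 and 5 and 5.99 and -0.32 on saline arrays 2 and 4. Slc6a4 had values of -0.03, 0.42 and 0.19 on carrageenan arrays 1, 3 and 5 and -1.55 and 1.21 on saline arrays 2 and 4. Pdyn and Slc6a4 thus had both signs in the RVM and a single sign in the periaqueductal grey, a difference that was not tested.

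**Figure D5:**
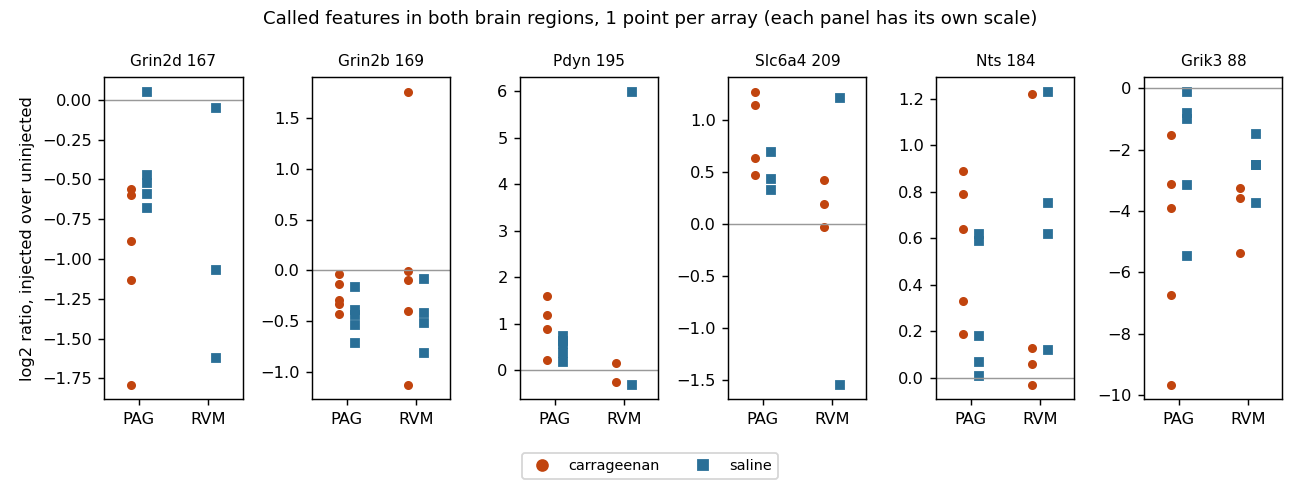
Log2 ratio of injected over uninjected (vertical axis, with its own scale in each panel) for the 6 called PAG features on the PAG and RVM arrays, 1 point per array, circles for carrageenan and squares for saline. Grik3 lies below 0 on every array that measured it in each region, while Pdyn and Slc6a4 lie above 0 on every measured PAG array and on both sides of 0 in the RVM.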

How the data were processed

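Log2 ratios were used as the authors deposited them, 1 for each feature and array; base 2 was inferred from their range, and scanning, background correction, normalization and centring are not given in the sources used here. Per the labels' protocols, 5 µg of RNA per sample was reverse transcribed and labelled with a 3DNA kit. An exact 0 was taken as not measured. Features were named from the platform annotation. Of the 202 with 1 symbol, 191 matched the rat RefSeq table (GRCr8), 11 kept the annotation's name, and 26 of 228 had none.

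Mean ratios were tested against 0 with limma 3.58.1 (R 4.3.3; lmFit, eBayes) over the 10 PAG arrays with no covariate, with p-values adjusted over the 78 features tested at 0.05, and the script was tested on simulated data. Differences between injections and between PAG and RVM were fitted likewise. Intervals are 95% intervals, and the number of arrays limits the precision. Text names features that passed, or the 10 smallest p, other features of those genes, opioid and tachykinin features, and up to 2 features per list by p. The question, lists and rule were chosen with earlier results of these data known. Features named beyond the rule were chosen after their values were seen. Alternatives covered the features tested, zeros, centring, quantile normalization, weights, a replicate block, an exact test and single arrays left out.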

Additional observations from a re-analysis of the deposited data

Results flagged for a closer look

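Of 81 groups of 4 or 5 arrays examined, 16 held a value far from the others of its group. About 1 in 20 would be expected for independent and normally distributed values, which these were not shown to be. Saline array 5 measured 33 features and the other saline arrays 90 to 95. On the saline arrays, Grin2d feature 167 was 0.051 on array 5 against -0.68 to -0.47 elsewhere, and Il10ra was -0.84 on array 4 against -0.19 to -0.02. Saline array 2 was the highest for Tacr3 (0.69), Gabra5 (4.22), Gabre feature 74 (5.40), Calca (5.43) and Ntf3 (0.24).

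On the carrageenan arrays, array 4 was the highest for Tacr2 (3.71), Gabra5 (2.67) and Il1b (3.08) and the lowest for Gad2 (-0.22) and Calca (-0.94). Array 5 was the highest for Adora2a feature 23 (3.90) and Ntf3 (3.54), and array 3 was the lowest for Tac1 feature 28 (-0.62). Of the called features, Grin2d was the only one with such a value. Neither the comparison of injections nor that of regions gave a feature that passed.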

How the results depend on the processing

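The 6 called features kept their direction in every setting that gave them a value. Of the 6 calls, 0 held with zeros kept as 0 (228 features tested, 25 with an unadjusted p below 0.05). The called features of Grin2d, Grin2b, Nts and Grik3 were measured on every array, so their means did not change there. For them that setting changed only the features tested beside them. Of the 6 calls, 0 held with the exact sign-flip permutation test, without carrageenan array 1 or without saline array 1. Leaving out 1 array in turn gave 0 to 9 calls. The exact test had 3 features at the smallest p it allows with 10 arrays, 0.00195, and 4 features at that p would have passed. With fewer arrays its smallest p is larger, which limits what it can show for features such as Slc6a4. In that test 26 features had an unadjusted p below 0.05. Without both arrays numbered 1, chosen after seeing the data, 0 features passed. With a replicate block 9 features passed, the 6 among them, but the shared numbers did not pair the arrays (deviations from the group means of same-numbered arrays correlated at -0.26 to 0.45, and 1 of 5 carrageenan arrays correlated best with its own number). Under quantile normalization 5 of the 6 were among 6 calls. The 22 features measured on every array did not include Pdyn or Slc6a4. The other 4 of the 6 were all among the 7 calls in that setting. Between injections, 1 feature, Oprd1, passed with zeros kept as 0, where its unmeasured saline arrays count as even ratios; leaving out arrays gave 0 calls throughout. Between regions no setting gave a call.

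Signs turned for features near 0. Pomc feature 198 averaged -0.0703 with equal weight for the injections, -0.0040 with median centring, -0.0248 with array weights, -0.0054 with the block, -0.0708 centred on the tested features and -0.13 without both arrays numbered 1. It ran from -0.16 to 0.0265 with single arrays left out, with -0.13 and -0.02 without carrageenan arrays 1 and 3. Grin2d feature 171 averaged -0.0050 with median centring, -0.0012 under quantile normalization and -0.0516 centred on the tested features (-0.0044 to 0.0244 with single arrays left out). Tacr3 averaged -0.0600 with array weights, -0.0067 centred on the tested features and -0.0037 without both arrays numbered 1 (-0.0617 to 0.20 with single arrays left out). Penk feature 194 averaged -0.19 without both arrays numbered 1 (-0.21 to 0.36 with single arrays left out), and Tac1 feature 79 ran from -0.20 to 0.0945. The difference in measured features stayed between 56.0 and 83.7 with single arrays left out.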

Other observations

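Further features were measured on all 5 carrageenan arrays and on no saline array, and so did not enter the main test. Besides Oprd1 these were Gabra3 and Gabra6, subunits of the GABA-A receptor, the cytokine Il16 and the peptide precursor Vip. Gabra3 read -1.09, -1.78, -2.34, -2.28 and -5.21, and Gabra6 -0.12, -0.81, -5.92, -1.64 and -1.18, all below 0. Il16 (mean -0.27) and Vip (mean 0.48) had both signs. In all, 77 of 228 features had a value on some carrageenan array and on no saline array, and 4 the reverse.

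At the other extreme, some serotonin receptor features gave almost the same ratio on every array. Htr2a feature 11 stayed between -0.0080 and 0.053 on all 10 arrays (SD 0.019), and Htr5a between -0.166 and 0.011 (SD 0.053). The array held no feature known to be a control, so whether these values measure expression was not tested.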
